A study of Bos taurus with 170 samples.

Results

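Solute carriers (SLC) are membrane proteins that move small molecules and ions across the plasma membrane and the membranes of organelles. Their families are numbered by sequence similarity and differ in cargo, so that the cell takes up sugars, amino acids, nucleosides and metals through separate sets of carriers, while the SLC25 family mostly serves the inner mitochondrial membrane. In the cleaving embryo, carriers are first made from mRNA stored in the oocyte, and mRNA from the embryonic genome is added during embryonic genome activation. All genes of the transcript table whose symbol consists of SLC followed by a family number were examined, which gave 220 of 10772 genes. Of these, SLC7A6OS, SLC9A3R1 and SLC9A3R2 carry an SLC symbol through a neighbouring or partner gene and are not known as transporters. They were kept under the rule and are marked as such where they appear.

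The samples were single blastomeres of untreated bovine embryos that were matured, fertilized and cultured in vitro, collected at Day 2 (8-cell stage, 6 embryos) and at Day 3 (16-cell stage, 8 embryos). The embryos came from slaughterhouse oocytes and frozen-thawed semen, were cultured in medium with oestrous cow serum, and had been chosen by their cleavage times, so that they do not stand for all embryos in culture. Libraries were made by SCRB-Seq, in which the 3′ end of each captured mRNA is marked with a unique molecular identifier (UMI) and PCR copies count as 1. Cells with 2000 or more UMI were summed per embryo, which left 43 Day 2 and 118 Day 3 cells of 170 and gave 438899 to 920192 UMI on genes per Day 2 embryo and 294912 to 600185 per Day 3 embryo. Levels are given as CPM, the UMI of a gene per 1000000 UMI on genes in that embryo. Since 1 mRNA gives 1 UMI whatever its length, CPM needs no correction for gene length.

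The tissue was checked against marker genes. Of 12 genes listed for the oocyte and early embryo, 10 were in the table and all 10 had UMI. Their summed level was 9782 to 11611 CPM on Day 2 and 3192 to 12398 CPM on Day 3, and DPPA3, a maternal chromatin factor, was the most abundant. In the test described below, 4 of these 10 genes passed, all of them lower on Day 3 (40.0%, where 11.28% of all genes tested were lower). Of 10 genes listed for cumulus and granulosa cells, 8 were in the table, and nearly all of their UMI were of HAS2 and STAR (summed level 451 to 570 CPM on Day 2 and 139 to 518 CPM on Day 3). Of the other 6, CYP11A1 had 2 UMI on Day 2 and 1 on Day 3, PTX3 7 and 2, FST 11 and 5, INHA 0 and 1, AMH 1 and 10, and TNFAIP6 1 and 35, the last in all 8 Day 3 embryos. Among genes of sperm, TNP1 had 1 and 3 UMI and ODF1 0 and 3 UMI, and among genes of blood, HBB had 0 and 1 UMI and PTPRC 1 and 0 UMI, on Day 2 and Day 3, respectively. The part of cumulus and granulosa cells in the SLC values was not tested.

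Some libraries stood apart. Embryo Day3-E1 lay close to Day 2 embryos for many genes, as described below. By the labels, 2 sets of cell barcodes were in use. The first was carried by every Day 2 embryo and by Day3-E1 and Day3-E2, the second by the Day 3 embryos numbered 4 to 8, and the set of Day3-E3 is not settled. In all, 93 distinct barcodes were used, 77 of them for 2 cells each. Plate 1 held Day 3 embryos alone, whereas plates 2 and 3 held embryos of both days. Nothing in the labels places embryos of the same number in a common litter or batch.

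Each of the 220 SLC genes had at least 1 UMI in the cells analysed. On Day 2, 208 were detected and on Day 3, 206, with 194 on both days and 91 in all 14 embryos. Most were rare. The median of the mean levels was 8.03 CPM, 50 genes had fewer than 10 UMI in all, and 18 had a mean level over 100 CPM. A Day 2 embryo contained UMI of 167 ± 12.5 SLC genes (SD, n = 6) and a Day 3 embryo of 151 ± 7.21 (SD, n = 8), where all genes numbered 8808 ± 312 and 8302 ± 261. Day 2 cells held more UMI, and the median number of SLC genes per cell was 106 on Day 2 and 59.5 on Day 3. With each cell thinned to 10000 UMI (37 Day 2 and 103 Day 3 cells, with 6 and 15 shallower cells left out), the median was 43.0 on Day 2 and 39.0 on Day 3. Over all thinned cells of an embryo, the order of the days turned, with 99.8 ± 9.70 SLC genes in Day 2 embryos and 121.5 ± 9.35 in Day 3 embryos, from 4 to 8 and 11 to 14 cells per embryo, respectively.

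The SLC genes together took a larger share of the UMI in most Day 3 embryos. Day 2 embryos had a sum of 6944 ± 231 CPM (SD, n = 6) and Day 3 embryos of 9960 ± 2020 CPM (SD, n = 8), a ratio of means of 1.43. Day 2 embryos fell between 6626 and 7247 CPM. Day 3 embryos ranged from 6823 CPM in Day3-E1, inside the Day 2 range, to 12191 CPM in Day3-E4 and 12784 CPM in Day3-E8, and the other 7 Day 3 embryos were all above the Day 2 range. Without Day3-E1 the ratio was 1.499. The number of SLC UMI per cell went the other way, with a mean of 640 ± 99.6 in Day 2 embryos (SD, range 518 to 767) and of 262 ± 62.0 in Day 3 embryos (SD, range 190 to 335), while Day 3 cells held fewer UMI of all genes. Most of the difference lay in SLC2A3 and SLC31A1. Without these genes the sum was 6785 ± 215 CPM on Day 2 (SD, n = 6) and 7391 ± 622 CPM on Day 3 (SD, n = 8), and the ranges of the days overlapped (6510 to 7071 CPM and 6483 to 8349 CPM). This remaining sum includes SLC7A6OS, which is not a transporter and whose mean level went from 46.8 CPM on Day 2 to 379 CPM on Day 3.

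**Figure D1:**
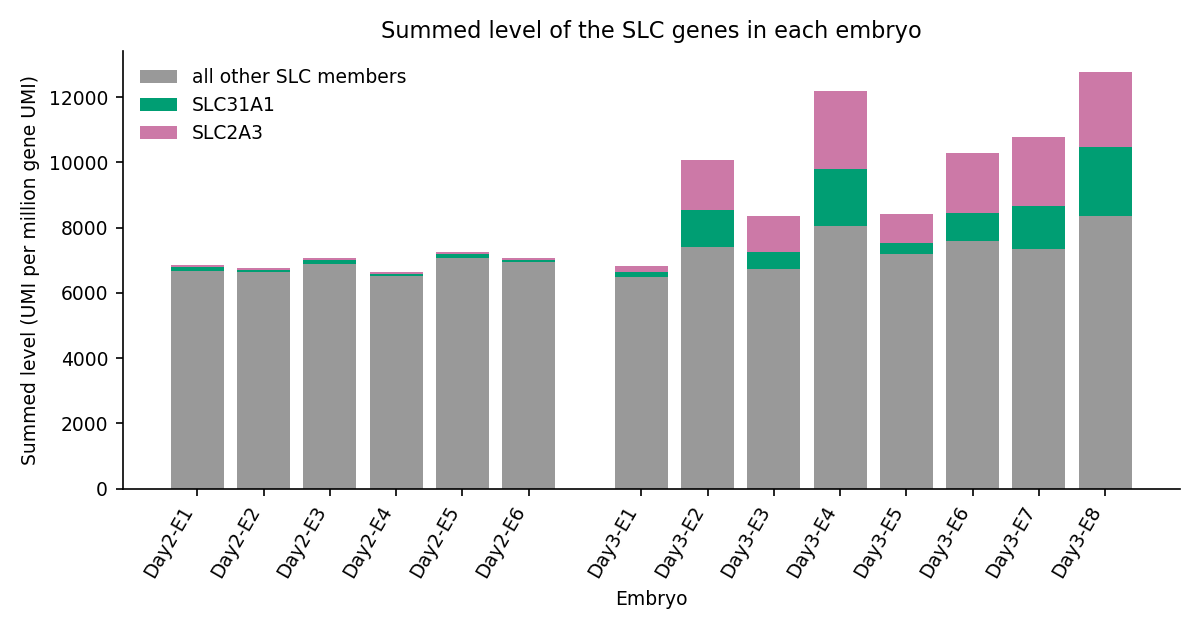
Summed level of the 220 SLC genes in each embryo, in UMI per 1000000 UMI on genes, with the shares of SLC2A3, SLC31A1 and all other SLC members stacked. Day3-E1, at 6823, sits among the Day 2 embryos, and the other Day 3 bars are higher mainly through the upper segments. The other members include SLC7A6OS, which is not a transporter.

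The leading carriers changed with the day. In all 6 Day 2 embryos the most abundant SLC transcript was that of SLC1A5, with 6.52% to 6.92% of the SLC UMI. In Day3-E1 it was again SLC1A5, and in the other 7 Day 3 embryos it was SLC2A3, which rose from 0.881% ± 0.157 of the SLC UMI on Day 2 (SD, n = 6) to 14.596% ± 5.77 on Day 3 (SD, n = 8). The 8 leading members of an embryo held 33.4% ± 0.963 of its SLC UMI on Day 2 and 50.6% ± 11.22 on Day 3. Taken over all 14 embryos, the order of mean level was SLC2A3, SLC1A5, SLC31A1, SLC25A44, SLC7A3, SLC7A6OS (not a transporter), SLC35E3 and SLC25A17.

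Differences between the days were tested with edgeR's quasi-likelihood test on the embryo sums, with Benjamini-Hochberg adjustment over all 5274 genes that passed its filter on low counts. Since it is not known from the labels whether embryos of a day share parents, the p-values measure the spread between these embryos. Of the 220 SLC genes, 78 passed the filter, and the 142 that did not held 9.93% of the SLC UMI of Day 2 and 6.93% of those of Day 3. On Day 3, 18 SLC genes were higher and 8 were lower at an adjusted p under 0.05, or 33.3% of those tested, where 32.5% of all genes tested were called (21.2% higher and 11.28% lower). The median log2 fold change was 0.07 over the SLC genes and -0.04 over all genes. The split depended on the scaling. Without the TMM scaling between libraries, which assumes that most genes do not change, the median of all genes moved to -0.27 and the SLC genes split into 15 higher and 14 lower (19.2% and 17.9%, against 16.88% and 18.6% of all genes tested), with 23 of the 26 called genes still called and SLC16A1 and SLC25A30 no longer so. Without Day3-E1, 22 of 75 SLC genes were higher and 13 lower (29.3% and 17.3%), against 23.96% and 17.7% of all genes.

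The days did not overlap in 11 of the 78 SLC genes tested. Day 3 was the higher in 7 (3.98% of all genes tested had all Day 3 embryos on this side) and the lower in 4 (5.38% of all genes tested). The former were SLC25A25, SLC2A3, SLC31A1, SLC7A6OS (not a transporter), SLC25A12, SLC25A36 and SLC1A5, and the latter SLC40A1, SLC25A15, SLC25A51 and SLC25A26. Among the 18 genes called higher, Day3-E1 had the lowest Day 3 level in 12 (66.7%, against 62.8% of all genes called higher) and lay within the Day 2 range in 7 (38.9%, against 57.7%). Day3-E4 or Day3-E8 had the highest level in 13 (72.2%, against 73.1%). Among the 8 called lower, Day3-E1 was the highest Day 3 embryo in 5 (62.5%, against 53.9% of all genes called lower), and Day3-E4 or Day3-E8 the lowest in 7 (87.5%, against 81.3%).

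**Figure D2:**
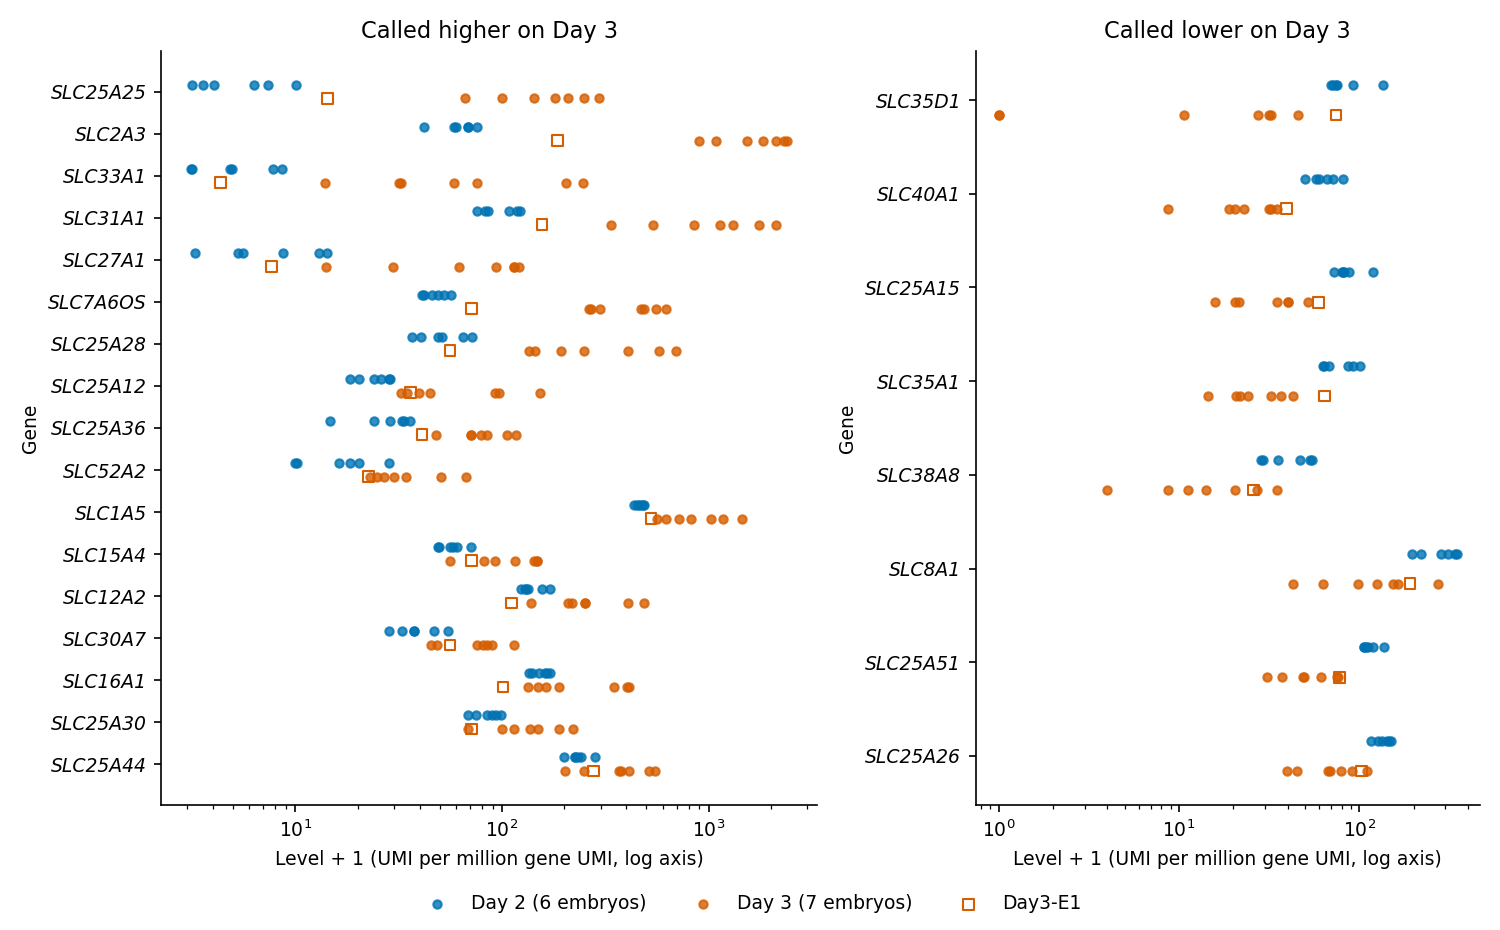
Level of 17 of the 18 SLC genes called higher and of the 8 called lower on Day 3, with a point for each embryo on a log axis of CPM plus 1, genes ordered by the size of their fold change. For SLC25A25, SLC2A3 and SLC31A1 all Day 3 points lie to the right of the Day 2 points, with Day3-E1 (open square) nearest to Day 2.

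Glucose carriers were represented by 11 genes of the SLC2 and SLC5 families. Of the 3 tested, 1 was called (33.3%, where 32.5% of all genes tested were called). This was SLC2A3, the high-affinity facilitative transporter GLUT3. Its level ranged from 41.1 to 74.8 CPM on Day 2 (median 63.3) and from 185 to 2394 CPM on Day 3 (median 1687), so that the groups did not overlap. The lowest Day 3 value was that of Day3-E1 and the next was 894 CPM. The log2 fold change was 5.02 (standard error, SE, 0.53, edgeR adjusted p = 1.39e-05), and mean levels were 61.3 ± 11.72 CPM (SD, n = 6) and 1544 ± 774 CPM (SD, n = 8). The gene also had more UMI per cell on Day 3, with a median of 4 on Day 2 and 37.5 on Day 3, although Day 3 cells held fewer UMI in total. The other tested members were SLC2A8, the mainly intracellular GLUT8, with a log2 fold change of 0.52 (edgeR adjusted p = 0.161), and SLC2A1, the widespread GLUT1, with 0.45 (adjusted p = 0.468). SLC2A1, which is named here after its values were seen, had 24.9 ± 10.131 CPM on Day 2 (SD, n = 6) and 27.6 ± 24.05 CPM on Day 3 (SD, n = 8), with a Day 3 range of 5.98 to 76.7 CPM that lay wholly below the Day 3 range of SLC2A3. Without SLC2A3, the glucose carriers summed to 59.4 to 97.6 CPM on Day 2 and 67.8 to 136 CPM on Day 3, which overlap.

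Amino acid carriers formed a group of 29 genes, of which 7 were tested, 1 was higher and 1 was lower on Day 3. These were 14.29% each of those tested, where 21.2% of all genes tested were higher and 11.28% lower. The higher was SLC1A5, the sodium-dependent exchanger ASCT2 that carries glutamine and other neutral amino acids. Day 2 embryos had 432 to 483 CPM (median 465) and Day 3 embryos 525 to 1444 CPM (median 771). Here the Day 2 embryos were nearly alike, and the lowest Day 3 value, again in Day3-E1, was just above them. The log2 fold change was 1.25 (SE 0.30, edgeR adjusted p = 0.00476). The lower gene was SLC38A8, of the sodium-coupled neutral amino acid transporters, at 27.3 to 53.4 CPM on Day 2 and 2.99 to 33.8 CPM on Day 3. Its groups overlapped, with a log2 fold change of -0.97 (SE 0.32, edgeR adjusted p = 0.0283), and the call was lost without Day2-E1, Day2-E4 or Day2-E5 (adjusted p 0.0556 to 0.0638). SLC7A3, the carrier of cationic amino acids CAT3 and the next most abundant of the group after SLC1A5, had 336 ± 49.5 CPM on Day 2 (SD, n = 6) and 224 ± 89.4 CPM on Day 3 (SD, n = 8), and its log2 fold change was -0.37 (edgeR adjusted p = 0.166). The whole group summed to 1164 ± 71.3 CPM on Day 2 and 1321 ± 183 CPM on Day 3.

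**Figure D3:**
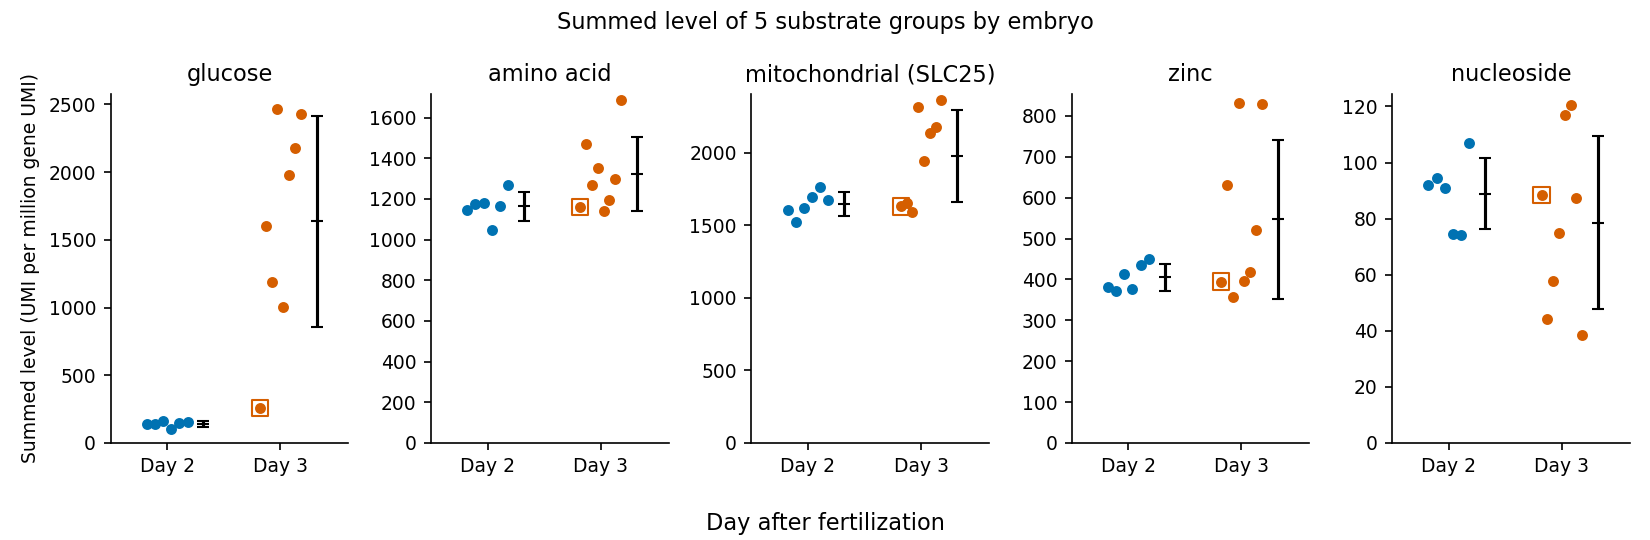
Summed level of the glucose, amino acid, mitochondrial, zinc and nucleoside carriers in UMI per 1000000 UMI on genes, with a point for each embryo (squares mark Day3-E1) and the mean ± SD beside them. Only the glucose carriers, led by SLC2A3, have all Day 3 embryos above all Day 2 embryos.

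The SLC25 family was the group with the most members tested, 21 of 29, and held called genes in both directions, with 6 higher and 3 lower (28.6% and 14.29% of those tested, where 21.2% and 11.28% of all genes tested were called). Of the tested SLC genes, SLC25A25 had the highest log2 fold change, though it could pass the filter on low counts only through its Day 3 level. It encodes a calcium-regulated carrier that exchanges ATP-magnesium for phosphate. It had 2.17 to 9.11 CPM on Day 2 (median 4.16) and 13.33 to 293 CPM on Day 3 (median 161). The log2 fold change was 5.45 (SE 0.69, edgeR adjusted p = 5.93e-05), based on 17 UMI in 6 Day 2 embryos and 454 in 8 Day 3 embryos. SLC25A28, the mitochondrial iron importer mitoferrin-2, had 35.6 to 70.4 CPM on Day 2 (median 49.0) and 54.98 to 695 CPM on Day 3 (median 220). In this gene Day3-E1 was within the Day 2 range and the other Day 3 embryos were at 134 CPM or more, and the log2 fold change was 3.00 (SE 0.56, edgeR adjusted p = 0.000935).

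The aspartate-glutamate carrier SLC25A12 rose from 23.3 ± 4.26 to 65.2 ± 43.6 CPM (log2 fold change 1.84, edgeR adjusted p = 0.00611), with Day3-E8 the highest at 152 CPM. SLC25A36, a carrier of pyrimidine nucleotides, rose from 27.3 ± 7.88 to 76.1 ± 25.9 CPM (log2 fold change 1.74, adjusted p = 0.000725). Both had separate groups. SLC25A44, which imports branched-chain amino acids, was the most abundant SLC25 member on Day 3, whereas on Day 2 SLC25A17 was, and rose from 233 ± 26.8 to 367 ± 123 CPM (log2 fold change 0.95, adjusted p = 0.00821), with overlapping groups. SLC25A30 had 67.4 to 98.3 CPM on Day 2 and 67.6 to 219 CPM on Day 3, and its call (log2 fold change 0.98, adjusted p = 0.0318) was lost on leaving out any of 9 of the 14 embryos.

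In all 3 SLC25 members that fell the days did not overlap. SLC25A15, the ornithine carrier that links mitochondria to the urea cycle, had 71.5 to 118 CPM on Day 2 (median 80.9) and 14.94 to 58.3 CPM on Day 3 (median 36.5), with a log2 fold change of -1.07 (SE 0.24, edgeR adjusted p = 0.00343). SLC25A51, the importer of NAD, went from 114 ± 12.05 to 56.1 ± 18.4 CPM (log2 fold change -0.78, adjusted p = 0.00476). SLC25A26, the carrier of the methyl donor S-adenosylmethionine, went from 135 ± 12.9 to 74.4 ± 25.4 CPM (log2 fold change -0.62, adjusted p = 0.0207), and was not called on plates 2 and 3 alone or with a replicate block. SLC25A17, which is in the family by sequence but serves the peroxisome, had 288 ± 52.8 CPM on Day 2 and 157 ± 86.2 CPM on Day 3. It did not pass (log2 fold change -0.68, edgeR adjusted p = 0.0745), but was called under 4 of the 24 alternatives. With edgeR, its adjusted p was 0.0222 without Day3-E1, 0.0468 without TMM and 0.0357 on plates 2 and 3 with plate as a term. DESeq2 gave an adjusted p of 0.0420. The sum of the SLC25 genes was 1646 ± 83.1 CPM on Day 2 and 1976 ± 318 CPM on Day 3.

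Zinc carriers comprised 19 genes of the SLC30 exporters and SLC39 importers. Of the 6 tested, 1 was called (16.67%, where 32.5% of all genes tested were called). SLC30A7, the zinc transporter of the Golgi, had 27.4 to 54.1 CPM on Day 2 (median 36.4) and 44.5 to 114 CPM on Day 3 (median 77.2), with a log2 fold change of 1.21 (SE 0.29, edgeR adjusted p = 0.0045). The most abundant zinc carrier on both days was the importer SLC39A10, which had 136 ± 19.3 CPM on Day 2 (SD, n = 6) and 220 ± 161 CPM on Day 3 (SD, n = 8), and the Day 3 values were split between 346 to 445 CPM in Day3-E2, Day3-E4 and Day3-E8 and 85.8 to 139 CPM in the other 5 embryos. Its log2 fold change was 1.099 (SE 0.47, edgeR adjusted p = 0.0790). Without Day3-E1, Day3-E3 or Day3-E5, its adjusted p was 0.0305 to 0.0472. SLC39A12 had 78.7 ± 10.96 and 67.3 ± 31.1 CPM, with a log2 fold change of 0.01 (adjusted p = 0.984) whose sign depended on the setting.

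Of 6 nucleoside carriers, only SLC29A1, the equilibrative transporter ENT1, passed the filter. It had 48.8 ± 9.73 CPM on Day 2 (SD, n = 6) and 52.4 ± 28.9 CPM on Day 3 (SD, n = 8), and its log2 fold change was 0.34 (SE 0.30, edgeR adjusted p = 0.394). On plates 2 and 3 with plate as a term, it was 0.79 with an adjusted p of 0.0324, and within the first barcode set its sign turned (-0.21). The concentrative transporter SLC28A1 had 9.13 to 23.5 CPM on Day 2 and 0 to 16.95 CPM on Day 3 and was not tested. The 6 genes summed to 88.9 ± 12.6 CPM on Day 2 and 78.5 ± 30.8 CPM on Day 3.

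Metal carriers outside the zinc families included 5 tested genes, with 1 higher and 1 lower. These were 20.0% each, where 21.2% of all genes tested were higher and 11.28% lower. SLC31A1, the plasma membrane copper importer CTR1, had 74.6 to 121 CPM on Day 2 (median 96.1) and 155 to 2124 CPM on Day 3 (median 994). The days did not overlap, Day3-E1 was the lowest Day 3 embryo and Day3-E8 the highest. The log2 fold change was 3.801 (SE 0.57, edgeR adjusted p = 0.0002). SLC40A1, the iron exporter ferroportin, went the other way, from 49.2 to 79.7 CPM on Day 2 (median 62.0) to 7.72 to 38.3 CPM on Day 3 (median 26.2). Its log2 fold change was -1.09 (SE 0.24, edgeR adjusted p = 0.00247).

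**Figure D4:**
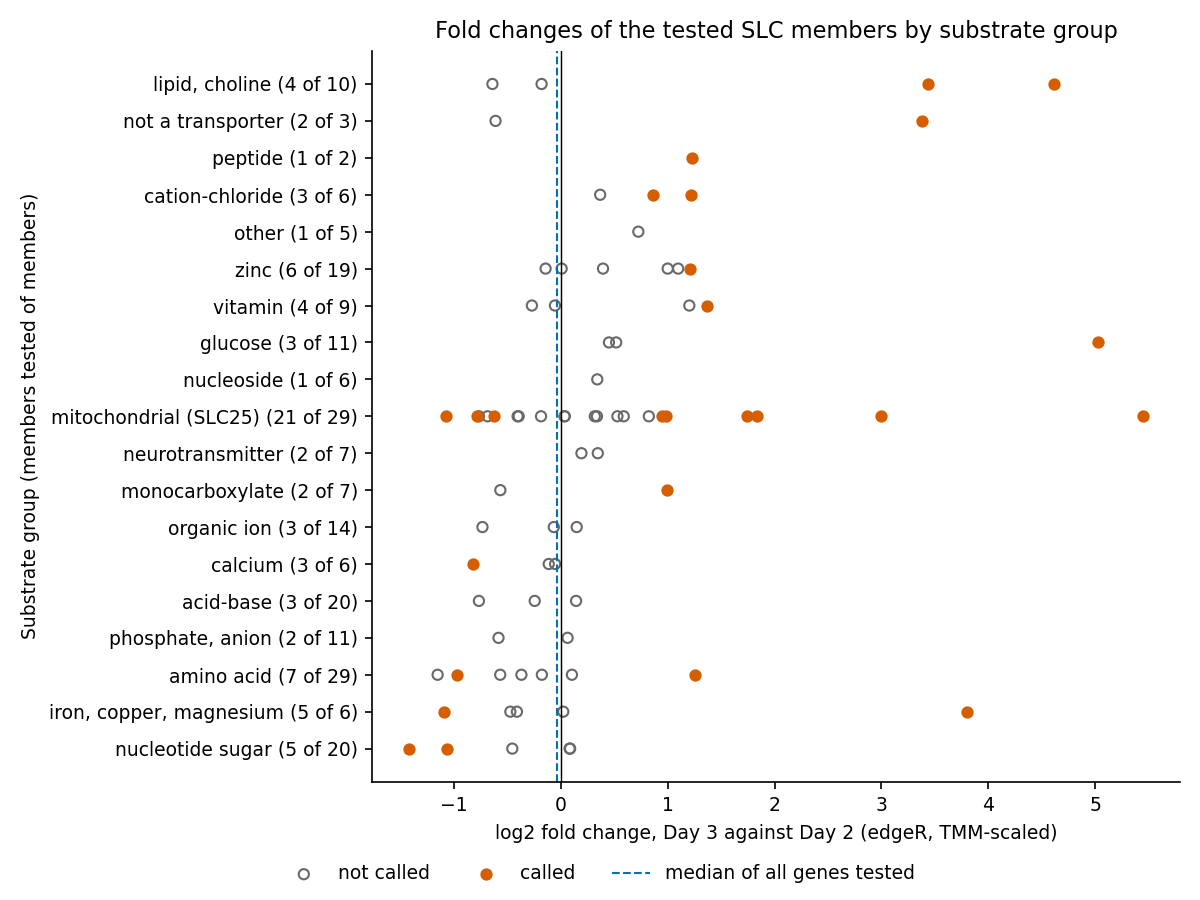
Log2 fold change between Day 3 and Day 2 of each tested SLC gene, by substrate group, with filled points for genes called at an adjusted p under 0.05 (edgeR) and a dashed line at the median of all genes tested, -0.04. Most points lie between -1 and 1, and SLC25A25 (5.45), SLC2A3 (5.02), SLC33A1 (4.61) and SLC31A1 (3.801) lie farthest to the right.

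Among the 4 tested carriers of lipids and their precursors, SLC33A1 and SLC27A1 were called, but both were rare on Day 2 and could pass the filter on low counts only through their Day 3 levels, so that their count is no result about the group. SLC33A1, which brings acetyl-CoA into the endoplasmic reticulum, had 2.137 to 7.61 CPM on Day 2 (median 3.899) and 3.33 to 245 CPM on Day 3 (median 44.5). Day3-E1 was within the Day 2 range and the other Day 3 embryos were above it, with a log2 fold change of 4.61 (SE 0.91, edgeR adjusted p = 0.00139). SLC27A1, a fatty acid transport protein, had 2.28 to 13.19 CPM on Day 2 and 6.66 to 120 CPM on Day 3, with Day3-E1 and Day3-E3 within the Day 2 range (log2 fold change 3.44, adjusted p = 0.00111). On Day 2, SLC33A1 had 17 and SLC27A1 33 UMI in all.

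Of the remaining called genes, 5 were higher on Day 3 with overlapping groups, of which 4 are described. SLC12A2, the sodium-potassium-chloride cotransporter NKCC1, rose from 140 ± 18.9 to 258 ± 127 CPM (log2 fold change 1.22, edgeR adjusted p = 0.0130). The lysosomal peptide and histidine carrier SLC15A4 had a log2 fold change of 1.23 (adjusted p = 0.00570) and the riboflavin carrier SLC52A2 of 1.37 (adjusted p = 0.0106). SLC52A2, at 8.96 to 27.3 CPM on Day 2, passed the filter on low counts mainly through its Day 3 level. SLC16A1, the monocarboxylate transporter MCT1 that carries pyruvate and lactate, was at the threshold, with 134 to 169 CPM on Day 2, 100 to 412 CPM on Day 3 and a log2 fold change of 0.99 (adjusted p = 0.0499). Its call was lost on leaving out any of 10 of the 14 embryos.

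The SLC35 family carries nucleotide sugars into the compartments of the secretory pathway. Of its 5 tested genes, 2 passed, both lower on Day 3 (40.0%, where 11.28% of all genes tested were lower). SLC35A1, which carries CMP-sialic acid into the Golgi, went from 62.0 to 100 CPM (median 76.5) on Day 2 to 13.56 to 63.3 CPM (median 27.2) on Day 3 (log2 fold change -1.06, edgeR adjusted p = 0.00597). SLC35D1, which carries UDP-sugars into the endoplasmic reticulum, had 68.4 to 134 CPM on Day 2 and 0 to 73.3 CPM on Day 3, with no UMI in Day3-E4 and Day3-E8. Its log2 fold change of -1.42 (SE 0.48, adjusted p = 0.0319) was no longer called without Day2-E3, Day2-E6 or Day3-E7 (adjusted p 0.0511 to 0.0715). The abundant SLC35E3 had 280 ± 50.2 and 177 ± 74.1 CPM and did not pass (log2 fold change -0.45, adjusted p = 0.122). SLC8A1, the sodium-calcium exchanger NCX1 of the plasma membrane, went from 282 ± 62.9 to 138 ± 74.2 CPM (log2 fold change -0.82, adjusted p = 0.0282), and the call was lost without Day2-E1 or Day2-E2 (adjusted p 0.0507 and 0.0534).

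SLC7A6OS, which is named for its place opposite SLC7A6 and is not a transporter, was among the strongest rises. It had 40.2 to 55.4 CPM on Day 2 (median 46.3) and 70.0 to 623 CPM on Day 3 (median 383), with a log2 fold change of 3.38 (SE 0.44, edgeR adjusted p = 8.74e-05). The strand used in counting is not given in the sources used here, so UMI of SLC7A6OS and SLC7A6, which overlap in the RefSeq annotation (ARS-UCD2.0), may not be told apart. In the same annotation SLC25A25 overlaps NAIF1, SLC25A51 overlaps DCAF10, SLC25A26 overlaps LRIG1, SLC35A1 overlaps RARS2, SLC38A8 overlaps NECAB2 and SLC39A10 overlaps DNAH7. SLC8A1, SLC16A1, SLC25A15, SLC25A17, SLC30A7, SLC35E3, SLC6A7 and SLC7A14 overlap gene models without a symbol of their own, and SLC30A7 and SLC6A2 tRNA genes. The same limit holds for all of these. Without SLC7A6OS, SLC9A3R1 and SLC9A3R2, 17 of 76 tested SLC genes were higher and 8 lower.

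Cells of an embryo differed among themselves on both days. In cells with 10000 or more UMI, SLC2A3 was at 9.11 to 146 CPM on Day 2, and no such cell lacked it on either day. It ranged from 67.8 to 75.2 CPM over the 4 cells of Day2-E1 and from 9.11 to 74.8 CPM over the 6 of Day2-E4. On Day 3 the medians were 156 CPM in Day3-E1 and between 818 and 2627 CPM in the other embryos. The cells of Day3-E4 all lay between 1809 and 3365 CPM, whereas those of Day3-E5 ranged from 138 to 2477 CPM and those of Day3-E3 from 127 to 2287 CPM. SLC31A1 ranged from 42.4 to 1062 CPM over the cells of Day3-E3 and from 1639 to 3036 CPM over those of Day3-E8. A few UMI set the lowest ends of the wide ranges in Day3-E3 and Day3-E5.

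**Figure D5:**
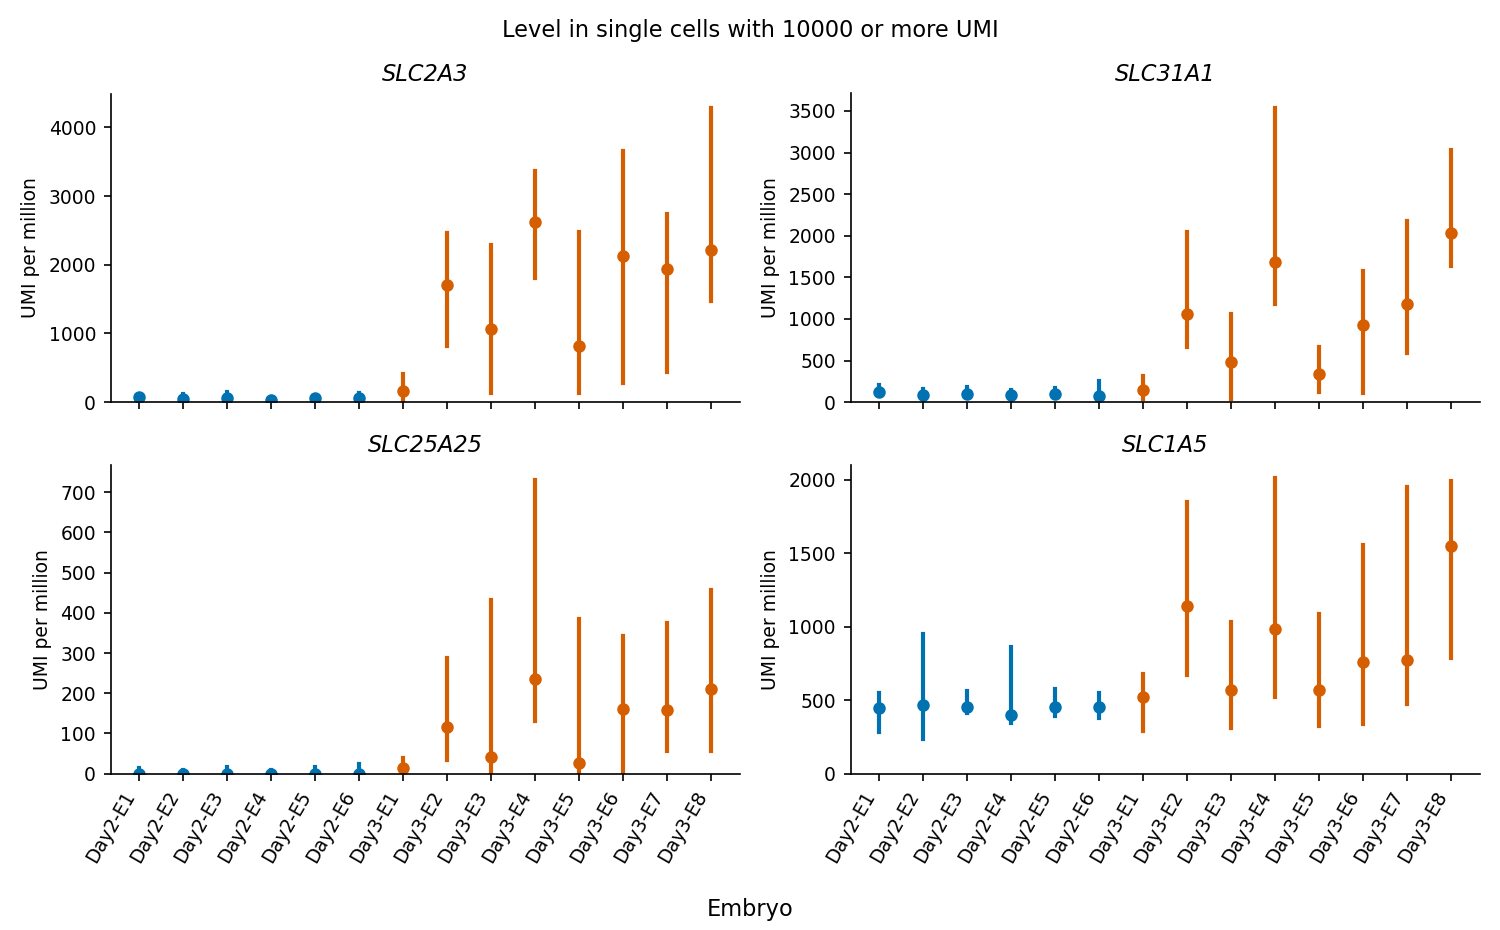
Level of SLC2A3, SLC31A1, SLC25A25 and SLC1A5 in single cells with 10000 or more UMI, in UMI per 1000000 UMI on genes, with a dot at the median and a line from the lowest to the highest cell of each embryo. The ranges of SLC2A3 are wide in Day3-E3, Day3-E5 and Day3-E6, where they begin at 127, 138 and 280 CPM, whereas they begin at 1809 CPM in Day3-E4 and 1474 CPM in Day3-E8.

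The share of cells with a UMI was compared after thinning to 10000 UMI. SLC25A25 was found in 3.33% ± 8.16 of the thinned cells of a Day 2 embryo (SD, n = 6) and in 63.7% ± 33.9 of those of a Day 3 embryo (SD, n = 8), ranging from 7.69% in the lowest Day 3 embryo to 100% in the highest. Unthinned, the shares of cells were 23.3% on Day 2 and 81.4% on Day 3. SLC7A6OS, not a transporter, went from 35.8% ± 20.9 to 85.6% ± 20.8 of the thinned cells (83.7% and 95.8% unthinned). SLC35A1 went from 54.1% ± 10.32 to 18.5% ± 15.41 (88.4% and 45.8% unthinned). No cell type that lacks these genes was sampled, so a background share from free RNA could not be set beside them.

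Genes with UMI on a single day were few and rare. Day 3 alone had UMI of 12 of the 220 SLC genes, where 5.19% of all genes in the table were so restricted, and Day 2 alone had UMI of 14 (4.79% of all genes). On each day 8 of these genes had a single UMI. The clearest was SLC2A5, the fructose transporter GLUT5, with 24 UMI in 14 cells of 4 Day 3 embryos (17.9 CPM in Day3-E4, 2.599 in Day3-E5, 25.9 in Day3-E7 and 23.2 in Day3-E8) and 0 on Day 2. The limit that a count of 0 allows is 3 UMI over all Day 2 cells, or 0.746 CPM. The pooled Day 3 level of SLC2A5, 7.62 CPM, was 10.22-fold this limit, without the counting error of the 24 UMI. All 4 embryos carried the second barcode set, which no Day 2 embryo carried. SLC22A31, a member of the organic ion transporters, had 9 UMI in 5 Day 3 embryos, and the noradrenaline transporter SLC6A2 had 5 UMI in 5 embryos. The zinc importer SLC39A5 had 3 UMI, all in 1 cell of Day3-E7. Of the Day 2 genes none had more than 4 UMI. SLC22A16, a carnitine carrier, and SLC6A7, the proline transporter, had 4 each, and SLC39A4, SLC27A5 and SLC7A14 had 3 each. Over all Day 2 cells, 4 UMI stand for 0.994 CPM, against a limit of 0.952 CPM on Day 3, so that a difference was barely or not detectable at this depth. These limits cover counting error only.

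Genes that act with the carriers were listed to set beside them, and their counts stand against the 32.5% of all genes tested that were called. Of 9 tested glycolysis genes, 1 was higher (ALDOC, an aldolase, log2 fold change 2.42, edgeR adjusted p = 0.0020) and 1 lower (PKM, a pyruvate kinase, -0.91, adjusted p = 0.0258), with a median of -0.03. ALDOC, at 9.78 to 20.5 CPM on Day 2, could pass the filter on low counts only through its Day 3 level. TXNIP, a protein that lowers glucose uptake at the plasma membrane, was lower on Day 3, at 175 ± 54.3 CPM on Day 2 (SD, n = 6) and 63.9 ± 46.8 CPM on Day 3 (SD, n = 8), and its log2 fold change was -1.26 (SE 0.38, adjusted p = 0.0185). BSG, the chaperone of monocarboxylate transporters, had a log2 fold change of 0.64 (adjusted p = 0.0585), and its relative NPTN of -0.30 (adjusted p = 0.407). Of 3 tested subunits of the sodium pump, which maintains the gradient that sodium-coupled carriers use, ATP1B3 was higher (log2 fold change 2.43, adjusted p = 0.0032), and ATP1B1 had a value of 0.00. Both tested zinc-handling genes passed, with the metallothionein MT3 lower, in separate groups (log2 fold change -0.91, adjusted p = 0.0196) and the zinc-sensing factor MTF1 higher (0.56, adjusted p = 0.0360). The porins VDAC1, VDAC2 and VDAC3 of the outer mitochondrial membrane had log2 fold changes of -0.04, 0.19 and -0.46 (adjusted p = 0.912, 0.593 and 0.174).

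The batches that hold both days were also tested alone. On plates 2 and 3, with plate as a term, 18 of 79 SLC genes were higher and 10 lower (22.8% and 12.7%, against 19.9% and 17.97% of all genes), and of the 26 genes called in all embryos 25 were tested and 21 called again. SLC16A1, SLC25A26, SLC25A30 and SLC38A8 were not called there. On these plates every Day 2 embryo carried the first barcode set and every Day 3 embryo the second. The fit could therefore not tell day from barcode set. Within the first barcode set, which has 2 Day 3 embryos (Day3-E1 and Day3-E2) against 6, 6 of 94 SLC genes passed, all higher on Day 3 (6.38%), where 5.28% of all genes were higher and 0.388% lower. These were SLC2A3 (log2 fold change 4.09), SLC31A1 (2.99), SLC7A6OS (2.06, not a transporter), SLC25A28 (1.76), SLC25A12 (1.59) and SLC1A5 (1.11). Of the 26 genes called in all embryos, 23 were tested there, while SLC25A25, SLC27A1 and SLC33A1 did not pass the filter. Among the tested genes that lost their call, SLC12A2 had a log2 fold change of 1.31 (1.22 in all embryos, edgeR adjusted p = 0.0915). SLC25A15 had -0.48 (-1.07 in all embryos, edgeR adjusted p = 0.351). The second barcode set holds Day 3 embryos alone, so the days could not be compared within it. For SLC25A25, SLC27A1 and SLC33A1 the difference between the days was not tested within a barcode set.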

How the data were processed

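Single blastomeres of 14 bovine embryos were profiled by SCRB-Seq. Per the study's methods, the authors mapped reads to Bos tau7 and the ERCC spike-ins with STAR 2.5.2b and made the table with the Drop-seq pipeline. The deposited values are whole UMI counts per gene and cell, not normalized. The authors' normalised table was not used. ERCC rows held 1.78% of the UMI and were left out.

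Cells with fewer than 2000 UMI were removed (9 of 170) and counts summed per embryo, the replicate. Day 3 and Day 2 were compared with edgeR 4.0.16 (R 4.3.3; filterByExpr, TMM, quasi-likelihood test, Benjamini-Hochberg adjustment over all genes tested, threshold 0.05). Standard errors are the log2 fold change over the square root of its F statistic. The fit was tested on simulated data. Alternatives were: no TMM, DESeq2 1.42.0, no filter, robust dispersion, all cells, cells with 10000 or more UMI, thinned cells, single batches, a replicate block, and leaving out each embryo. SLC symbols were matched to RefSeq (217 by symbol, 3 by synonym). Its build differs from that of the files, so no coordinates are given. No promoter or protein sequences were used here.

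Named genes were the 8 largest called rises and falls (genes with separate groups first), the 8 highest mean levels, in each of 5 substrate groups (glucose, amino acid, mitochondrial, zinc, nucleoside) the 2 highest and all called members, up to 5 restricted genes per day with the most UMI, and members of a subfamily with opposite calls. The other called genes complete the list, except that some results are not reported here. SLC genes, substrate groups, marker and companion lists were chosen with earlier results of these data known, and group entries for SLC7A6OS and the SLC14, SLC45, SLC48 and SLC51 families were added after the symbols had been seen. Depth limits precision to the UMI totals given above.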

Additional observations from a re-analysis of the deposited data

Results flagged for a closer look

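In 2 of the 82 groups of embryos examined, the extreme embryo lay farther from the next than the limit for a group of that size, which chance alone passes in about 1 in 20 groups. Both were Day2-E6. SLC25A15 was at 118 CPM in Day2-E6, and the next highest Day 2 embryo was at 86.9 CPM. SLC35D1 was at 134 CPM in Day2-E6, and the next was at 91.0 CPM. Without Day2-E6, SLC25A15 was still called lower on Day 3 by edgeR's test and SLC35D1 was not (adjusted p = 0.0715).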

How the results depend on the processing

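Of the 26 called SLC genes, 9 were called under every alternative that tested them and 20 in every fit without 1 embryo that tested them. The number called higher (18) was 32 without the filter on low counts, 9 in thinned cells, 6 in the first barcode set and 11 with a replicate block. In this order, these were 14.55%, 36.0%, 6.38% and 14.103% of the SLC genes tested, against 14.23%, 18.64%, 5.28% and 11.36% of all genes tested. The number called lower (8) was 14 without TMM, 1 in thinned cells, 0 in the first barcode set and 4 with the block. In this order, these were 17.95%, 4.00%, 0% and 5.13% of the SLC genes tested, against 18.60%, 7.95%, 0.388% and 3.92% of all genes tested. For these counts thinned cells left 25 SLC genes tested and the first barcode set 8 embryos. Leaving out 1 embryo gave 13 to 22 higher and 6 to 13 lower, the most of each without Day3-E1. DESeq2 called 23 higher and 12 lower (29.5% and 15.38%, against 25.14% and 16.89% of all genes tested). The number of SLC genes with UMI on 1 day was 26, and 41 in thinned cells, and the number detected 220 and 192. The ratio of summed levels was 1.38 to 1.499 without 1 embryo and 1.43 in all cells and in cells with 10000 or more UMI.

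Nothing in the labels pairs the samples by embryo number. The correlations of same-numbered embryos' deviations were -0.0474, -0.122, 0.0263, -0.0141, 0.0152 and -0.134 for numbers 1 to 6. No correlations of differently numbered embryos were computed, so these values do not settle whether a pairing exists. With the replicate block 14 of the 26 called genes were called.

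Signs turned for SLC29A1 (-0.21 in the first barcode set) and for SLC39A12, at -0.20 without TMM, -0.055 without the filter, -0.0062 in cells with 10000 or more UMI, -0.38 in thinned cells, -0.23 in the first barcode set and -0.012 with the replicate block, and -0.13 to 0.11 without 1 embryo. The cause of these changes was not tested.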

Other observations

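The mitochondrial phosphate carrier SLC25A3, noticed after its values were seen, did not pass the filter on low counts, with 7 UMI in 5 of 6 Day 2 embryos and 86 UMI in 7 of 8 Day 3 embryos. Day 2 embryos averaged 1.99 ± 1.55 CPM (SD, n = 6) and Day 3 embryos 29.3 ± 23.8 CPM (SD, n = 8), with 0 UMI in Day3-E1.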
